A study of Danio rerio with 6 samples.

Results

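Markers of liver endothelium, the cells that line the sinusoids and vessels of the liver, were followed in RNA sequencing of zebrafish (Danio rerio) livers. They were chosen by name as kdrl, kdr, stab1, stab2, lyve1b, cdh5, fli1a, tie1, egfl7 and vegfaa. Of these, vegfaa encodes a ligand that acts on endothelium, and its rows are counted with the markers throughout. The 10 symbols, with letter case ignored and a missing paralogue suffix allowed, took 11 of the 30628 rows of the gene table. The symbol table lists fli1a as FLI1, for which RefSeq gives fli1a as a synonym, and holds 2 rows named VEGFA without a suffix. Both VEGFA rows were kept, each under its Ensembl identifier, and which of them is vegfaa cannot be told from the annotation used here. The paralogue symbol vegfab, not among the 10, matched the same 2 rows. Either row may thus be vegfab, and a row counted here may not be a chosen marker.

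The ATG5 group consisted of 3 liver libraries labelled as overexpressing ATG5 and treated with mifepristone. The series' design text gives the transgene as Tg(fabp10a:mCherry-T2A-LexPR;LexOP:ATG5WT), in which the fabp10a promoter, active in hepatocytes, drives a mifepristone-dependent activator that turns on human ATG5, an autophagy gene. The WT group consisted of 3 libraries of wild-type liver, also treated with mifepristone, and both groups are labelled 2 wpi. The series' design text calls the ATG5 livers hepatocellular carcinoma and the WT livers normal. A group with the transgene and no drug was not analysed here, so the transgene, its induction and other differences between the fish cannot be told apart. The labels do not say that replicates are separate animals, so the p-values rest on a spread that may be technical only. Below, ATG5 livers and WT livers stand for the libraries of each group.

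Endothelial cells read vascular endothelial growth factor (VEGF) through receptor tyrosine kinases such as those encoded by kdrl, kdr and flt1, while the Tie receptors and their angiopoietin ligands tune vessel stability. Sinusoidal endothelium in addition clears macromolecules from blood through scavenger receptors of the stabilin family. In mammals, hepatocytes are a main source of VEGFA in the liver and sinusoidal endothelium responds to it.

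Libraries held 33668921 to 44763213 estimated counts. Levels are given as CPM, in proportion to counts over the library's total multiplied by its factor from trimmed mean of M values (TMM) scaling. CPM therefore do not add up to a common total, and their total is lower in ATG5 than in WT libraries. A summed level in CPM is thus not a share of a library. On the CPM scale 3 counts came to 0.0503 to 0.12 CPM. Log2 fold changes are ATG5 over WT from edgeR's quasi-likelihood test, adjusted by the Benjamini-Hochberg method over all 20366 genes tested, and a gene is called at an adjusted p under 0.05. TMM factors differed between the groups (1.33 to 1.47 in ATG5, 0.684 to 0.763 in WT). With library sizes only, log2 folds shifted up by a median of 0.94, and the median of all genes tested was 0.97 instead of 0.03. Each log2 fold below, or fold for short, is therefore relative to TMM scaling. The log2 fold with library sizes only is given where it changes the call or the direction.

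Hepatocyte genes fell and macrophage genes rose in the same livers. Over all genes tested 17.3% were called higher and 13.2% lower. Of 20 hepatocyte markers tested 16 fell (median log2 fold -1.82), and their summed level was 80743 to 112310 CPM in ATG5 and 265060 to 330610 CPM in WT. The marker fabp10a, whose promoter the transgene uses, was not called (log2 fold -0.91, edgeR adjusted p = 0.0764). Its fold turned to 0.035 with library sizes only. On that scale 12 of the 20 were called lower, against 2.84% of all genes tested. Of 19 macrophage markers 17 rose, timd4 among them tested only through the ATG5 libraries, with a median of 3.26 and a summed level of 1870 to 2229 CPM in ATG5 and 232 to 316 CPM in WT. Bulk RNA cannot tell fewer or more cells of a type from less or more RNA per cell, and this holds for each endothelial marker too.

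Of the 11 rows 10 had counts in all 6 libraries. The other was lyve1b, which encodes a hyaluronan receptor of lymphatic and, in zebrafish, some venous endothelium. It had 0, 1 and 1 counts in ATG5 and 2, 1 and 0 counts in WT. No library exceeded 3 counts of it, so no difference was detectable at this depth, and lyve1b did not pass the filter on low counts. Its paralogue lyve1a, looked up after these values were seen, had 36, 4 and 3 counts in ATG5 and 40, 3 and 1 counts in WT and did not pass the filter either. In both groups replicate 1 held most of the lyve1a counts.

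Among the 10 rows tested, the VEGF receptor genes kdrl and kdr and the more highly counted VEGFA row fell in ATG5, and tie1 rose. In all, 1 of 10 was called higher and 3 lower, against 17.3% and 13.2% of all genes tested (30.6% either way). The groups did not overlap for 6 of 10 rows, against 49.3% of all genes tested. The median log2 fold of the 10 rows was -0.30. When library sizes alone set the scale, 6 of 10 were called higher and 1 lower, against 53.3% and 2.84% of all genes tested. The 1 called lower was VEGFA row ENSDARG00000034700, of a ligand gene. There kdrl and kdr were not called, at log2 folds of 0.15 and -0.01. In each scaling 7 rows lay below the median of all genes tested. The change of scaling shifts all log2 folds by nearly the same amount, so this agreement was fixed in advance.

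**Figure D1:**
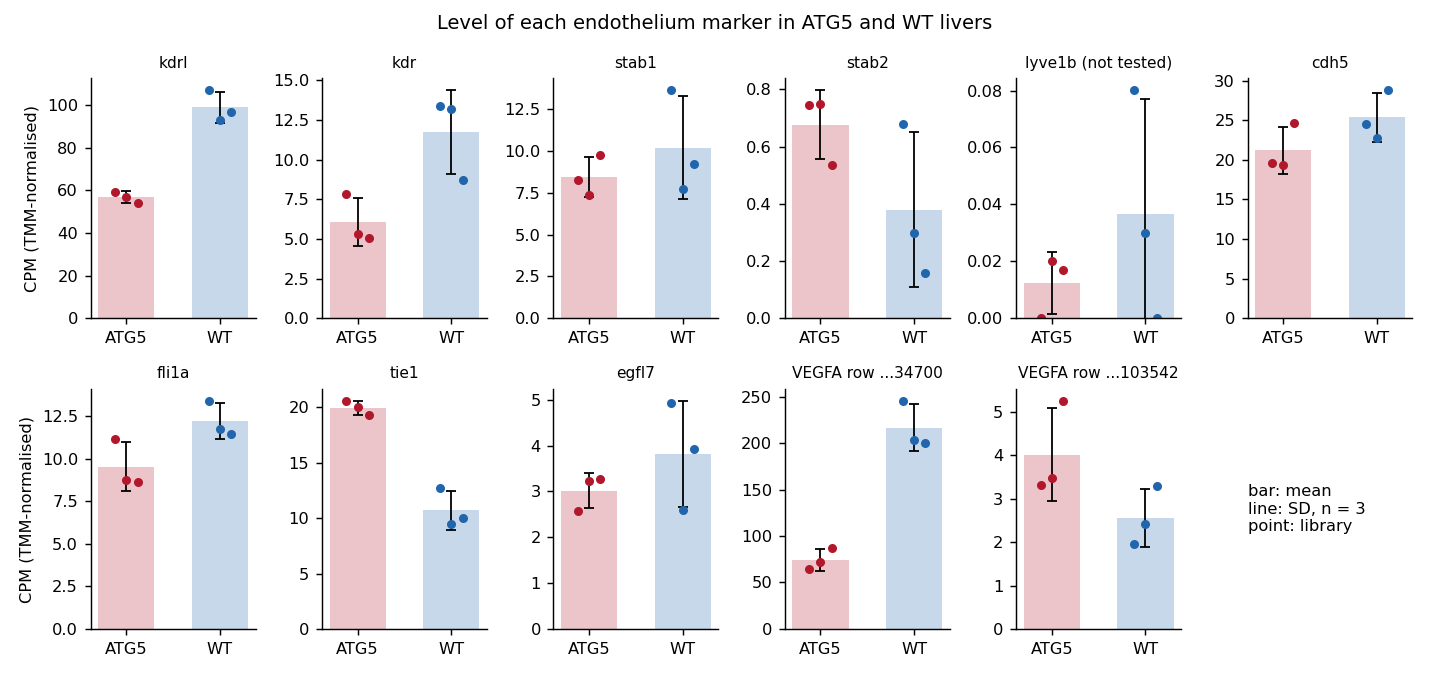
TMM-normalised CPM of the 11 marker rows, with ATG5 left of WT in each panel; points are libraries, bars are means and lines are SD (n = 3 per group), and each panel has its own scale from 0. The groups do not overlap for kdrl, kdr, fli1a, tie1 and both VEGFA rows, and lyve1b is near 0 counts throughout. For kdr, fli1a and VEGFA row ENSDARG00000103542 the groups lie near each other. With library sizes only, the kdrl difference turns to a log2 fold of 0.15 and that of kdr is -0.01.

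The receptor gene kdrl, a standard marker of zebrafish vessels, had 59.5, 57.1 and 54.1 CPM in ATG5 and 107, 93.0 and 96.8 CPM in WT. The 3 ATG5 livers lay close together and all below the WT livers. The log2 fold was -0.80 ± 0.07 (SE, n = 3 per group; edgeR adjusted p = 0.00782). Library sizes alone turned it to 0.15 (adjusted p = 0.395). The call held without each library in turn.

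Its paralogue kdr had 7.82, 5.32 and 5.07 CPM in ATG5 and 13.4, 13.2 and 8.69 CPM in WT. The groups did not overlap, but the highest ATG5 liver and the lowest WT liver lay near each other. The log2 fold was -0.95 ± 0.28 (SE, n = 3 per group; edgeR adjusted p = 0.0368). On library sizes alone the value was -0.01 (adjusted p = 0.974), and the call was also lost without ATG5 replicate 2, ATG5 replicate 3, WT replicate 1 or WT replicate 2, with folds of -1.20 to -0.86 over the 6 fits that leave out a library.

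The rows named VEGFA, an angiogenic ligand gene, may be different paralogues, and they differed. Row ENSDARG00000034700 had 64.1, 71.8 and 86.6 CPM in ATG5 and 246, 203 and 201 CPM in WT. All ATG5 livers lay far below the WT livers, and the log2 fold was -1.55 ± 0.16 (SE, n = 3 per group; edgeR adjusted p = 0.00288). It was the largest change among the 10 rows tested and was also called lower on library sizes alone (-0.60, edgeR adjusted p = 0.0246). A total of 6.30% of all genes tested had a lower log2 fold. The part of hepatocytes, whose markers fell, in the level of this VEGFA row was not tested.

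Row ENSDARG00000103542 had 3.32, 3.48 and 5.27 CPM in ATG5 and 1.96, 2.42 and 3.29 CPM in WT. The groups did not overlap by a small margin, and the row did not pass the test (log2 fold 0.65 ± 0.30, SE, n = 3 per group; edgeR adjusted p = 0.158), while on library sizes alone it was called higher (1.58, adjusted p = 0.00604). This row took 4.92%, 4.63% and 5.72% of the counts of both VEGFA rows in ATG5 and 0.798%, 1.17% and 1.62% in WT, a share that does not depend on scaling. All 3 ATG5 shares lay above the WT shares. Counts of this row were fractional in 3 libraries, as happens where kallisto splits reads between genes, while those of ENSDARG00000034700 were whole to within 0.0001 in all 6. The sum of both rows, which may join different paralogues, fell by 1.49 on the log2 scale.

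The orphan receptor gene tie1, which acts with the angiopoietin receptor encoded by tek, was the 1 marker called higher. It had 20.6, 20.1 and 19.3 CPM in ATG5 and 12.7, 9.45 and 10 CPM in WT. The ATG5 livers varied little, with a coefficient of variation of 3.17%, and lay clear of every WT liver. Counts of tie1 were fractional in all 6 libraries, as happens where kallisto splits reads between genes. The log2 fold was 0.90 ± 0.13 (SE, n = 3 per group; edgeR adjusted p = 0.0101) and 1.85 on library sizes alone (adjusted p = 0.000502). The call at 0.05 held without each library in turn, with folds of 0.80 to 1.03. By itself the size was not extreme here, as 77.7% of all genes tested had a lower log2 fold.

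The scavenger receptor genes were not called. The stabilin gene stab1 had 8.25, 7.35 and 9.74 CPM in ATG5 and 13.6, 7.72 and 9.21 CPM in WT. The ATG5 livers lay mostly within the WT range, and the log2 fold was -0.27 ± 0.27 (SE, n = 3 per group; edgeR adjusted p = 0.46), which turned to 0.68 with library sizes only (adjusted p = 0.0388). Mammalian stab1 is also known from macrophages, whose markers rose as given above, and their part in its level was not tested.

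The hyaluronan-clearing receptor gene stab2 had 40, 37 and 32 counts in ATG5 and 17, 10 and 4 counts in WT, or 0.745, 0.749 and 0.537 CPM against 0.680, 0.299 and 0.159 CPM. One WT liver lay within the ATG5 range. It passed the low-count filter through the ATG5 libraries, as 3 of them and 1 WT library reached the minimum of 0.263 CPM before scaling, and its counts were fractional in all 6 libraries. The log2 fold was 0.84 ± 0.55 (SE, n = 3 per group; edgeR adjusted p = 0.322), and 1.80 on library sizes alone (adjusted p = 0.0364).

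The adhesion, transcription factor and secreted factor genes were not called either. The cadherin gene of endothelial junctions, cdh5, had 19.6, 19.3 and 24.6 CPM in ATG5 and 24.5, 22.8 and 28.85 CPM in WT. The groups overlapped through ATG5 replicate 3, and the log2 fold was -0.26 ± 0.15 (SE, n = 3 per group; edgeR adjusted p = 0.282), turning to 0.68 with library sizes only (adjusted p = 0.013). The ETS factor gene fli1a, used to mark vessels in zebrafish, had 11.2, 8.72 and 8.65 CPM in ATG5 and 13.4, 11.8 and 11.4 CPM in WT.

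Its groups did not overlap but nearly touched, and the log2 fold was -0.36 ± 0.14 (SE, n = 3 per group; edgeR adjusted p = 0.163), turning to 0.59 with library sizes only (adjusted p = 0.0271). The gene egfl7, which encodes a protein that endothelium secretes into its matrix, had 2.57, 3.22 and 3.27 CPM in ATG5 and 4.92, 2.60 and 3.93 CPM in WT. Those groups overlapped, at -0.34 ± 0.29 (SE, n = 3 per group; edgeR adjusted p = 0.424), turning to 0.62 with library sizes only (adjusted p = 0.101).

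**Figure D2:**
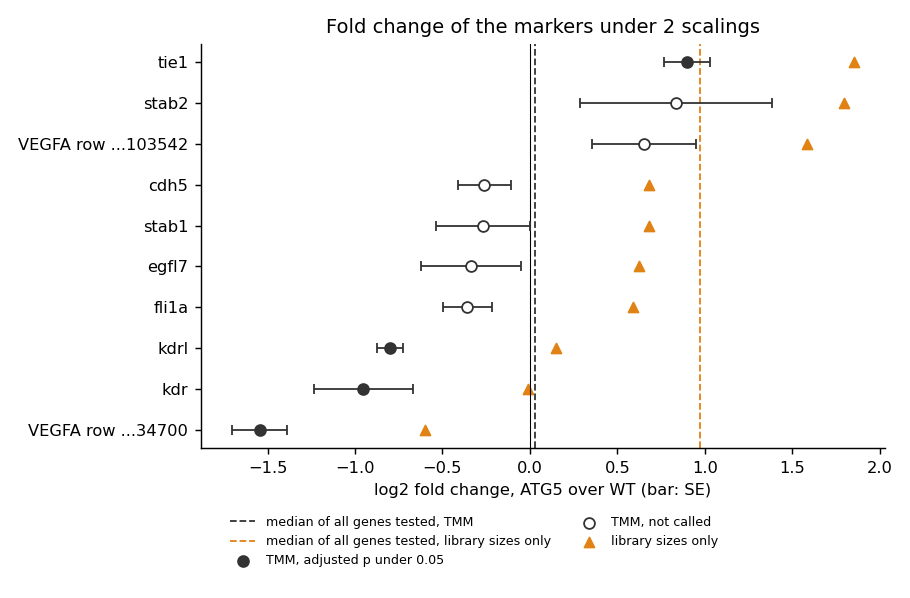
Log2 fold change of the 10 tested marker rows, ATG5 over WT. Circles are TMM-scaled folds with SE (n = 3 per group), filled where called at an adjusted p under 0.05; triangles are folds with library sizes only; dashed lines are the medians of all genes tested, 0.03 and 0.97. A change of scaling shifts all log2 folds by nearly the same amount, so the order of the markers is nearly kept by construction. Under each scaling tie1, stab2 and VEGFA row ENSDARG00000103542 lie above the median and the other 7 below it. The folds of kdrl, cdh5, stab1, egfl7 and fli1a change sign.

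Since the scaling set the direction of several markers, each was also given as a ratio to cdh5 within its own library, which no scaling between libraries can change. Of 9 such ratios 4 did not overlap between the groups, against 44.2% of the ratios of all genes tested to cdh5, so the count is near the background. An exact permutation test of 3 against 3 libraries cannot go below a two-sided p of 0.1, so no p is given for them. The ratio of tie1 to cdh5 counts was 1.05, 1.04 and 0.784 in ATG5 and 0.519, 0.414 and 0.346 in WT, a difference in log2 ratio of 1.17 ± 0.22 (SE, n = 3 per group). All ATG5 ratios lay above all WT ratios. Counts of tie1 were fractional in all 6 libraries and those of cdh5 in 3.

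The ratio of kdrl to cdh5 was 3.04, 2.95 and 2.20 in ATG5 and 4.37, 4.07 and 3.36 in WT, a log2 difference of -0.53 ± 0.19 (SE, n = 3 per group). For VEGFA row ENSDARG00000034700 the log2 difference was -1.29 ± 0.16, and for row ENSDARG00000103542 it was 0.91 ± 0.18. The ratios of kdr, stab1, stab2, fli1a and egfl7 to cdh5 overlapped between the groups. Differences for stab1, fli1a and egfl7 were small beside their errors, at 0.03 ± 0.26, -0.10 ± 0.25 and -0.03 ± 0.27.

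Against kdrl, a comparison added after the values were seen, the tie1 ratio had the smallest SE of all ratios computed. It stood at 0.346, 0.351 and 0.357 in ATG5 and 0.119, 0.102 and 0.103 in WT, a difference in log2 ratio of 1.71 ± 0.07 (SE, n = 3 per group), or 3.27-fold. The ratio of kdr to kdrl overlapped between the groups, with a difference of -0.16 ± 0.26. Fli1a to kdrl was 0.188, 0.153 and 0.160 in ATG5 and 0.125, 0.126 and 0.118 in WT, so that the ATG5 livers lay above the WT livers. In all, 7 of the 9 ratios to kdrl did not overlap, against 62.7% of the ratios of all genes tested to kdrl, which was itself called lower.

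**Figure D3:**
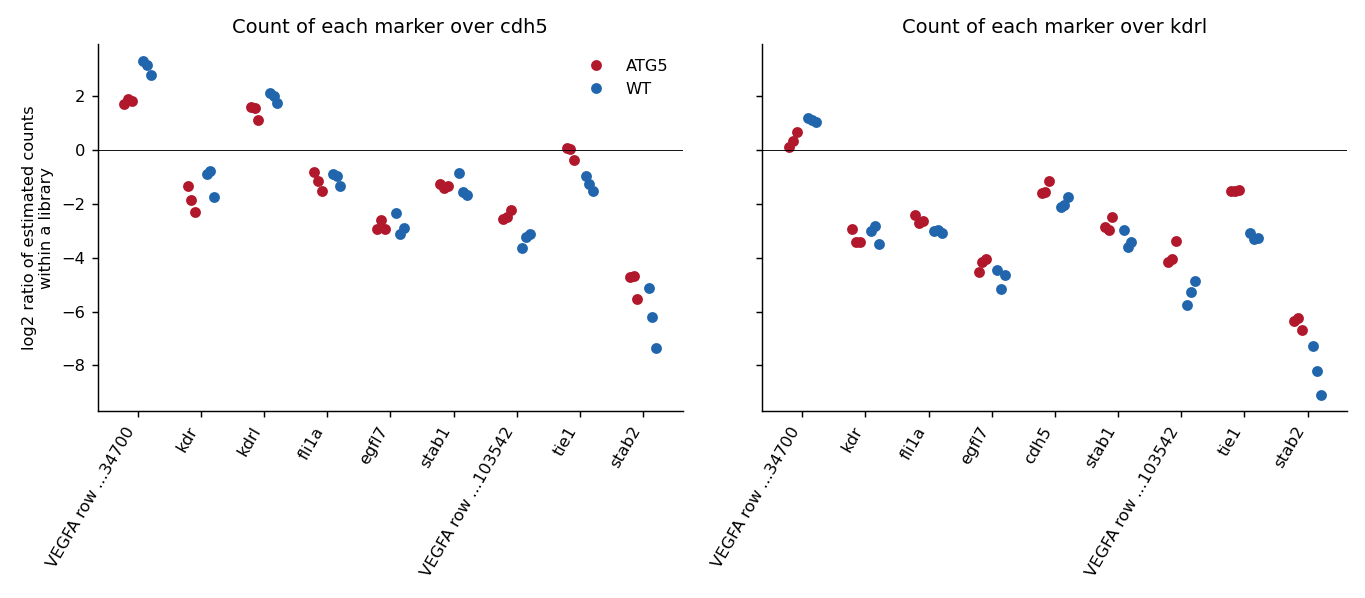
Log2 ratio of the estimated counts of each marker to cdh5 (left panel) and to kdrl (right panel) within each library; red points are ATG5 livers and blue points WT livers, 3 each. The tie1 points of the groups are apart in both panels, while kdr over kdrl overlaps.

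Other genes of VEGF signalling were read from a list of 16 rows, of which 14 were tested, the markers above included. Of these 2 rose and 5 fell (median log2 fold -0.61), against 17.3% and 13.2% of all genes tested. On library sizes alone 6 of 14 were called higher and 1 lower, against 53.3% and 2.84% of all genes tested, and the median turned to 0.33. Beside VEGFA, kdrl and kdr, the ligand gene vegfba fell, at 30.1, 39.5 and 30.8 CPM in ATG5 and 83.5, 72.5 and 83.7 CPM in WT (log2 fold -1.26 ± 0.14, SE, n = 3 per group; edgeR adjusted p = 0.00372). The receptor gene flt1, whose product binds VEGFA tightly and can act as a decoy, had 7.47, 6.03 and 5.38 CPM in ATG5 and 16.4, 11.9 and 15.8 CPM in WT.

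Its log2 fold was -1.22 ± 0.20 (SE, n = 3 per group; edgeR adjusted p = 0.008). Neither was called on library sizes alone, at -0.30 for vegfba and -0.27 for flt1 (adjusted p = 0.207 and 0.291). Which cells the vegfba RNA came from was not tested. The lymphatic receptor gene FLT4, named after its values were seen, was not called, at 6.87 ± 1.17 CPM in ATG5 and 9.22 ± 0.51 CPM in WT (SD, n = 3 each). Its log2 fold of -0.42 turned to 0.52 on library sizes alone, where it was called higher (edgeR adjusted p = 0.0451).

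The 2 rows of that list that rose were neuropilins, co-receptors for VEGF and semaphorins, and they were named after their values were seen. NRP1 had 25.3, 15.9 and 27.1 CPM in ATG5 and 9.81, 6.22 and 8.85 CPM in WT, without overlap. Its log2 fold was 1.46 ± 0.31 (SE, n = 3 per group; edgeR adjusted p = 0.0112), and the call held without each library in turn. NRP2 row ENSDARG00000038446 had a log2 fold of 0.79 ± 0.13 (edgeR adjusted p = 0.0296), and its call was lost without ATG5 replicate 1, ATG5 replicate 3 or any WT replicate (adjusted p up to 0.11). NRP2 row ENSDARG00000096546 was not called, at -0.97 ± 1.24 (edgeR adjusted p = 0.522). Nor was nrp1b, also named after its values were seen, at 0.32 ± 0.23 (edgeR adjusted p = 0.352). With library sizes only nrp1b was called higher (1.26, edgeR adjusted p = 0.00838). The sources of neuropilin RNA in these livers were not tested, and neuropilins are also known from cells other than endothelium.

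**Figure D4:**
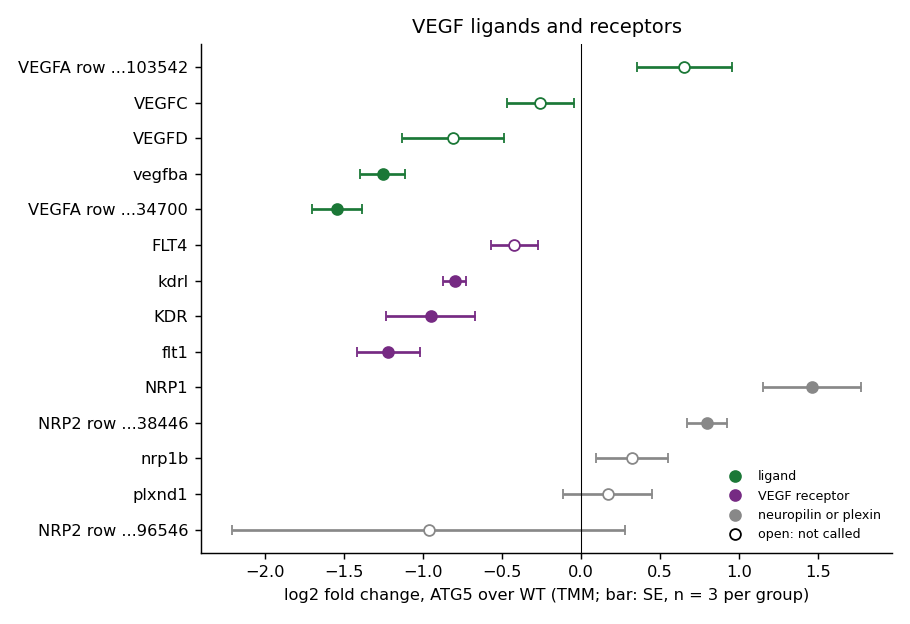
Log2 fold change, ATG5 over WT, of the 14 tested rows of the VEGF list with SE (n = 3 per group), ordered as ligands, receptors, and neuropilins or plexin; filled circles are called at an adjusted p under 0.05 under TMM scaling. The called ligand and receptor rows lie left of 0 and the 2 called neuropilin rows right of it; with library sizes only kdrl turns to 0.15, and VEGFA row ENSDARG00000034700 is the 1 row still called lower.

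On the Tie side, 3 of 8 rows tested (37.5%) rose, tie1 among them, and 0 fell, against 17.3% and 13.2% of all genes tested. With library sizes only 4 of the 8 were called higher, against 53.3% of all genes tested. The receptor gene tek, named after its values were seen, had 4.66, 6.40 and 3.82 CPM in ATG5 and 4.32, 6.19 and 2.62 CPM in WT. The groups overlapped (log2 fold 0.18 ± 0.41, SE, n = 3 per group; edgeR adjusted p = 0.746). SVEP1, which encodes a matrix protein that binds Tie1 in mammals, had 51.2, 19.55 and 2.82 CPM in ATG5 and 1.16, 1.85 and 1.55 CPM in WT.

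The ATG5 livers thus ranged widely for SVEP1, at a log2 fold of 4.0 ± 1.24 (edgeR adjusted p = 0.027). The SVEP1 call was lost without ATG5 replicate 1, ATG5 replicate 2 or any WT replicate (adjusted p up to 0.096). The adaptor gene dok2 had a log2 fold of 1.46 ± 0.42 (edgeR adjusted p = 0.0328) and lost its call without any library other than WT replicate 2. The gene dok2 is also known from blood cells, and the part of macrophages, whose markers rose, in its level was not tested.

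Most genes of endothelial junctions and surface, a list that holds cdh5 and egfl7 too, were not called. Of 36 rows tested 3 rose and 2 fell, or 8.33% and 5.56%, both below the background, and the median log2 fold was 0.09. On library sizes alone 19 of the 36 were called higher, against 53.3% of all genes tested. The guidance receptor gene robo4, known for its near restriction to endothelium, fell to 22.3, 20.8 and 19.5 CPM in ATG5, against 46.7, 40.0 and 34.4 CPM in WT, without overlap. Its log2 fold was -0.95 ± 0.14 (SE, n = 3 per group; edgeR adjusted p = 0.00767), and -0.004 on library sizes alone (adjusted p = 0.986).

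The junction gene ESAM fell too, at -1.24 ± 0.35 (edgeR adjusted p = 0.0284), a call that only the fit without WT replicate 2 kept among the 6 that leave out a library. On library sizes alone ESAM was not called, at -0.27 (edgeR adjusted p = 0.477). The lipid receptor gene S1PR1 rose, at 2.87, 2.79 and 3.42 CPM in ATG5 and 0.520, 0.479 and 0.476 CPM in WT (log2 fold 2.62 ± 0.10, SE, n = 3 per group; edgeR adjusted p = 0.00201). The caveolin gene CAV1 rose as well, at 93.0 ± 29.5 CPM in ATG5 and 28.7 ± 8.44 CPM in WT (SD, n = 3 each; edgeR adjusted p = 0.0128). CLDN5 row ENSDARG00000014059, a tight junction gene, stood at 16.1, 4.11 and 4.73 CPM in ATG5 and 1.32, 0.868 and 1.19 CPM in WT, and its call (adjusted p = 0.016) was lost without any WT replicate. CLDN5 row ENSDARG00000043716 was not called, at 1.30 ± 0.68 (edgeR adjusted p = 0.161), but was called higher with library sizes only (2.23, adjusted p = 0.0214). S1PR1 is also known from lymphocytes and CAV1 from many cell types.

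Of 20 endothelial transcription factor rows tested, fli1a among them, 3 rose and 2 fell (15% and 10%). Over all genes tested 17.3% rose and 13.2% fell. With library sizes only 9 of the 20 were called higher and 1 lower, against 53.3% and 2.84% of all genes tested. ETS1 had 10.9, 7.47 and 10.4 CPM in ATG5 and 3.56, 2.78 and 2.14 CPM in WT, and the groups stood apart (log2 fold 1.76 ± 0.27, SE, n = 3 per group; edgeR adjusted p = 0.00543). The row listed as fli1rs, for which RefSeq gives fli1b as a synonym, had 19.4, 15.3 and 17.1 CPM in ATG5 and 10.2, 8.47 and 9.52 CPM in WT. It rose by 0.87 ± 0.13 on the log2 scale (edgeR adjusted p = 0.0105), while fli1a did not pass the test. The part of blood cells in the levels of ETS1 and fli1rs was not tested.

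The third to rise was FOXC1, at 10.9, 60.1 and 5.90 CPM in ATG5 and 0, 0.239 and 0.0794 CPM in WT, where ATG5 replicate 2 was far above the others. FOXC1 passed the low-count filter only through the ATG5 libraries, and limma-voom did not call it. PROX1 fell to 77.4, 63.4 and 89.4 CPM in ATG5, against 218, 192 and 227 CPM in WT (log2 fold -1.47 ± 0.16, SE, n = 3 per group; edgeR adjusted p = 0.00329). It specifies lymphatic endothelium and is also a hepatocyte factor, and the part of hepatocytes, whose markers fell, in its level was not tested. NR2F2, a venous fate factor, fell by 0.97 on the log2 scale (edgeR adjusted p = 0.0267), was -0.04 with library sizes only, and lost its call without any ATG5 replicate.

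Notch and chemokine genes went both ways, with 3 of 13 rows tested higher and 3 lower (23.1% each). Over all genes tested 17.3% were higher and 13.2% lower. With library sizes only 8 of the 13 were called higher, against 53.3% of all genes tested. The chemokine receptor row CXCR4 ENSDARG00000041959 had 25.0, 21.7 and 21.4 CPM in ATG5 and 4.24, 4.79 and 3.33 CPM in WT, and the log2 fold was 2.46 ± 0.17 (SE, n = 3 per group; edgeR adjusted p = 0.000976). CXCR4 is also known from leukocytes. Ephrin gene EFNB2 row ENSDARG00000020164, an arterial marker, rose to 12.4, 6.94 and 11.2 CPM in ATG5, against 4.6, 3.56 and 3.85 CPM in WT (edgeR adjusted p = 0.0126). EFNB2 row ENSDARG00000074050 was not called, at 0.39 ± 0.16 (edgeR adjusted p = 0.398). With library sizes only that row was called higher (1.32, edgeR adjusted p = 0.0153).

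The Notch ligand gene dll4, active in arterial and tip cells, had 4.84, 7.31 and 7.28 CPM in ATG5 and 17.0, 9.63 and 16.4 CPM in WT, and dlc had 37.7, 43.6 and 41.1 CPM in ATG5 and 165, 59.8 and 117 CPM in WT. Their log2 folds were -1.14 ± 0.33 and -1.48 ± 0.43 (edgeR adjusted p = 0.0276 and 0.0249). Both calls were lost on library sizes alone, where dll4 stood at -0.18 and dlc at -0.51 (adjusted p = 0.595 and 0.221), and without any library other than WT replicate 2. The other rows called were NOTCH1 ENSDARG00000052094 (-0.92 ± 0.29, adjusted p = 0.0415) and CXCR4 ENSDARG00000057633 (3.88 ± 0.92, adjusted p = 0.0298). The NOTCH1 fold was 0.02 with library sizes only, its call was lost without ATG5 replicate 1, ATG5 replicate 2 or any WT replicate, and that of the CXCR4 row without any WT replicate. This CXCR4 row had 4, 3 and 3 counts in WT and passed the low-count filter only through the ATG5 libraries. There it stood at 4.25, 0.729 and 0.52 CPM, and without ATG5 replicate 1 its log2 fold was 2.30. NOTCH1 ENSDARG00000103554 was not called, at 0.22 ± 0.31 (edgeR adjusted p = 0.593), but was called higher with library sizes only (1.18, adjusted p = 0.0104).

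In the scavenger and lymphatic list, which holds stab1 and stab2 too, 2 of 12 rows tested rose and 2 fell (16.7% each). Over all genes tested 17.3% rose and 13.2% fell. With library sizes only 7 of the 12 were called higher and 2 lower, against 53.3% and 2.84% of all genes tested. DAB2 row ENSDARG00000053091, an endocytic adaptor, fell to 17.6, 17.0 and 15.4 CPM in ATG5, against 49.6, 46.0 and 68.7 CPM in WT (log2 fold -1.72 ± 0.19, SE, n = 3 per group; edgeR adjusted p = 0.00252), and PROX1 was the other that fell. The row dab2 ENSDARG00000031761 went the other way, at 5.05, 7.31 and 21.0 CPM in ATG5 and 2.96, 1.35 and 2.38 CPM in WT (edgeR adjusted p = 0.0322). Its call was lost without ATG5 replicate 3 or any WT replicate. The mannose receptor gene mrc1b rose to 13 ± 5.99 CPM in ATG5, against 3.51 ± 1.60 CPM in WT (SD, n = 3 each; edgeR adjusted p = 0.0235), a call lost without ATG5 replicate 1, WT replicate 1 or WT replicate 3. The part of macrophages, whose markers rose, in the levels of mrc1b and dab2 ENSDARG00000031761 was not tested.

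VEGFA is a known target of the hypoxia response, and that list was read too. It holds both VEGFA rows, and row ENSDARG00000034700 is among those counted as lower in each scaling. Of 29 rows tested 3 rose and 9 fell, or 10.3% and 31.0%, against 17.3% and 13.2% of all genes tested, and the median log2 fold was -0.70. On library sizes alone 8 of 29 were called higher and 3 lower, against 53.3% and 2.84% of all genes tested, and the median turned to 0.27. EPAS1 row ENSDARG00000008697, a hypoxia-inducible factor, had 109, 79.7 and 77.6 CPM in ATG5 and 240, 244 and 220 CPM in WT (log2 fold -1.40 ± 0.16, SE, n = 3 per group; edgeR adjusted p = 0.00388). EGLN3, an oxygen sensor and itself a hypoxia target, had 4.88, 6.92 and 5.42 CPM in ATG5 and 17.2, 16.2 and 14.6 CPM in WT.

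The EGLN3 log2 fold was -1.48 ± 0.16 (SE, n = 3 per group; edgeR adjusted p = 0.00339). Neither gene was called with library sizes only, at -0.46 and -0.52 (adjusted p = 0.0785 and 0.0768). BNIP3 and igfbp1b, named after their values were seen, fell too, at -1.89 and -2.85 (edgeR adjusted p = 0.0044 and 0.0171). Both stayed called lower with library sizes only, at -0.95 and -1.87 (adjusted p = 0.0151 and 0.0297). The other rows that fell were not called there. They were EPAS1 ENSDARG00000057671, vhl, EGLN1 ENSDARG00000004632 and EGLN1 ENSDARG00000105156. Glucose transporter row SLC2A1 ENSDARG00000007412, another known target, rose to 15.6, 10.3 and 12.6 CPM in ATG5, against 2.16, 3.02 and 3.57 CPM in WT (log2 fold 2.13 ± 0.27, SE, n = 3 per group; edgeR adjusted p = 0.0032). The other rows that rose were vhll and ADM ENSDARG00000069027, which had 1 to 10 counts in each WT library, and this ADM row passed the low-count filter only through the ATG5 libraries. ADM ENSDARG00000015263 was not called, at 0.39 ± 0.25 (edgeR adjusted p = 0.254), but was called higher with library sizes only (1.34, adjusted p = 0.00578).

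**Figure D5:**
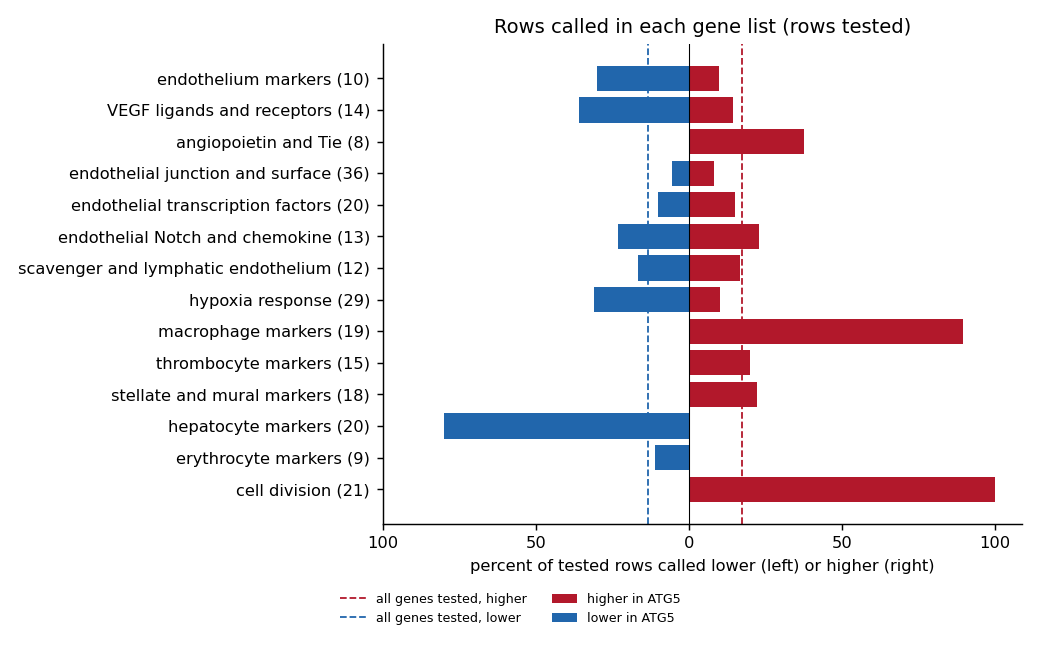
Share of tested rows called higher in ATG5 (red, right) and lower in ATG5 (blue, left) in each gene list under TMM scaling, with the number of rows tested in brackets; dashed lines are the shares over all genes tested, 17.3% and 13.2%. Macrophage and cell division rows are mostly right and hepatocyte rows mostly left. With library sizes only, more rows of each endothelial list are called higher than lower, as over all genes tested (53.3% and 2.84%).

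Markers of other cells found in or along vessels were read too. Of 18 stellate and mural rows tested 4 (22.2%) rose, against 17.3% of all genes tested, and PDGFRB, the pericyte receptor gene, was not called. The summed level of that list was 226 to 229 CPM in ATG5 and 124 to 150.5 CPM in WT. Only TAGLN of those 4 kept its call without each library, as MYH11, VIM and HAND2 lost theirs without ATG5 replicate 1, ATG5 replicate 2 or any WT replicate, and HAND2 also without ATG5 replicate 3. Further rows TAGLN ENSDARG00000045408, MYH11 ENSDARG00000100972 and VIM ENSDARG00000044501 were not called, at 0.91, 0.06 and -0.24 (edgeR adjusted p = 0.113, 0.963 and 0.78). With library sizes only that TAGLN row was called higher (1.85, adjusted p = 0.00676), and that VIM row turned to 0.66. Of 15 thrombocyte rows tested 3 (20%) rose, against 17.3% of all genes tested. They were PLEK and both FERMT3 rows, which other blood cells also express. FERMT3 row ENSDARG00000030938 lost its call without ATG5 replicate 1, ATG5 replicate 3, WT replicate 1 or WT replicate 3. The summed thrombocyte level overlapped (55.9 to 77.4 CPM in ATG5 and 26.7 to 75.1 CPM in WT), and itga2b, the defining marker, was not called. Of 9 erythrocyte rows tested 1 (11.1%), hemgn, fell, against 13.2% of all genes tested. The hemgn call was lost without any of the 6 libraries, and its log2 fold turned to 0.41 on library sizes alone. The summed erythrocyte level was 125 to 453 CPM in ATG5 and 270 to 812 CPM in WT. Every cell division row tested rose (21 of 21, median log2 fold 4.6), but AURKB, bub1 and BIRC5 reached the filter's minimum in no WT library and so were tested only through the ATG5 group. The part of these cells in the endothelial values was not tested.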

How the data were processed

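Estimated counts were deposited as 1 table, with Ensembl genes in rows and libraries in columns. The submitters' processing notes name kallisto 0.45.0, FastQC 0.11.5, sleuth 0.30.0 and GRCz11, without saying how each was used. The library kit keeps strand, per the labels' protocols, but no source used here says whether counting did, so sense and antisense partners may be mixed, and counts of near-identical paralogues are uncertain.

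Columns were matched by the sample descriptions and groups by the titles. Of 30628 rows, 23608 (77.08%) matched a symbol. Of the 247 symbols in 14 gene lists, 227 matched. The members and lists were chosen with earlier results of these data known. The rule for named genes took all markers and, from each list, up to 4 called genes with the smallest p, or 2 by abundance. Not all genes it took from the hepatocyte, macrophage and cell division lists are named. Others are said to be chosen after their values were seen, complete or limit a count, or are further rows of a named gene. Outside the rule, PDGFRB, itga2b and fabp10a are named as markers of their cell types.

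Estimated counts were rounded, filtered with filterByExpr (20366 genes left) and scaled with TMM in R 4.3.3. The groups were compared with edgeR 4.0.16 (glmQLFit and glmQLFTest, group only). The SE of a log2 fold comes from the spread of log2 CPM with a prior count of 2 within groups, which narrows it near 0 counts. Limits from 3 counts cover counting error only. No pair of libraries agreed within sampling noise by chi-square. The steps were tested on simulated data. Alternatives were scaling by RLE, upper quartile or library size, scaling without mitochondrial genes and the top 50, a stricter and no filter, limma-voom (limma 3.58.1), DESeq2 1.42.0, a threshold of 0.01, a replicate block, a prior count of 0.5, rows of a symbol summed, and leaving out each library. Protein and promoter sequences planned for paralogue pairs were not used here.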

Additional observations from a re-analysis of the deposited data

How the results depend on the processing

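Of the settings run, scaling by library sizes moved the counts of calls most. With library sizes only, 10853 genes were called higher and 578 lower, against 3529 and 2698 with TMM. Among the 10 marker rows tested 6 were then higher and 1 lower, against 1 and 3, and their median log2 fold was 0.65, against -0.30. The folds of kdrl, stab1, cdh5, fli1a and egfl7 reversed to 0.15, 0.68, 0.68, 0.59 and 0.62, as did those of NOTCH1 ENSDARG00000052094 (0.020), FLT4 (0.52) and hemgn (0.41). Summing both VEGFA rows turned the fold of row ENSDARG00000103542 to -1.49 by construction. At an adjusted p under 0.01, 1518 genes were higher and 953 lower, and 0 and 2 marker rows, where the edgeR adjusted p of tie1 was 0.0101.

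Deviations of same-numbered libraries correlated at -0.04, -0.10 and 0.02, which gave no sign of pairing by replicate number. With so few libraries per group, such values cannot exclude pairing. The replicate block gave 2253 genes higher and 1636 lower and left the marker counts at 1 and 3. Leaving out 1 library gave 2218 to 2791 genes higher and 1583 to 2071 lower, 1 marker row higher and 2 to 3 lower, and a marker median of -0.42 to -0.21. The genes called higher and lower moved most without WT replicate 1 (2218 and 1583) and without ATG5 replicate 1 (2312 and 1614). The fold of tek ranged from -0.10 to 0.50, reversed without ATG5 replicate 2 (-0.05) and WT replicate 3. In the other settings run, kdrl, tie1 and VEGFA row ENSDARG00000034700 stayed called in 1 direction. With limma-voom the calls of FOXC1, SVEP1, CLDN5 ENSDARG00000014059, CXCR4 ENSDARG00000057633, dab2 ENSDARG00000031761, VIM and HAND2 were lost. At this depth lyve1b could not be compared, and stab2 had 4 to 40 counts a library.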
